A study of Mus musculus with 6 samples.

Results

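Interferon-stimulated genes are the genes that a cell switches on when it senses interferon, and 42 of them were followed here among the 47069 genes of the count table. They were picked by symbol, as well-known members of the response, after earlier results of the same libraries had shown that PSB-KD107 library 4 was high in them. Their values in this contrast are therefore given as a description, with no test of the set. The libraries came from mdx myoblasts, the progenitors of muscle fibers in mice that lack dystrophin, the model of Duchenne muscular dystrophy. Muscle stem cells had been sorted from mdx muscle (negative for Sca-1, CD45, CD31 and CD11b, positive for Itgb1 and Itga7). The methods describe growth in medium with serum and FGF2, and a low-serum medium for fusion. They do not name the medium of the sequenced cells. Both groups thus carried the mdx mutation. The cells received vehicle (DMSO diluted in aqueous buffer) or 10 μM PSB-KD107, a synthetic agonist of the receptor Gpr18. The treatment label of the records reads PSB-KD-1 and their protocol PSB-KD107, and both were taken to be the same compound. The sample records give a treatment of 2 days, whereas the methods text describes an overnight one.

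There were 3 RNA-seq libraries per group, numbered 1, 2 and 4 in the count table, with 30917613 to 48756794 counts each. The methods describe cells from 3 different mice, but neither the records nor the table ties a library to a mouse, and whether the same 3 mice served both groups was not given in the sources used here. Spreads between libraries cover whatever differed between these cultures. For the injection experiments of the study the methods name male mice at 10 weeks of age, while for the donors of these cultures age and sex were not given in the sources used here. All 11 myoblast markers examined were detected in all 6 libraries, and their summed level was 11800 to 12500 CPM with vehicle and 10100 to 11300 CPM with PSB-KD107 (CPM, counts relative to the library total scaled with TMM factors). Within that list Pax7, which marks muscle stem cells, was at 68.8, 49.9 and 60.0 CPM with vehicle and at 34.0, 26.8 and 35.1 CPM with PSB-KD107, and Myog, which marks differentiating cells, at 2040, 2200 and 2160 CPM against 1170, 1730 and 1660 CPM, with no overlap between the groups for either. Mymk was also lower with no overlap, at 1310, 1320 and 1390 CPM against 966, 1120 and 1020 CPM. The share of all genes that were lower with no overlap is not given here, so nothing is read from the pattern in Pax7, Myog and Mymk. The other markers of the list overlapped between the groups. Myf5, for example, read 3.57, 18.6 and 21.3 CPM with vehicle and 4.23, 40.9 and 26.8 CPM with PSB-KD107. The part of these markers in the results below was not tested. PSB-KD107 library 4 stood apart from the other 5 libraries in the genes described here. Each result is for that reason given library by library, and each summary with and without it.

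In the textbook account, RNA sensors such as MDA5 and RIG-I detect double-stranded or uncapped RNA in the cytosol and lead to the making of interferon β. Secreted interferon binds its receptor on the same or a neighboring cell, and the kinases Jak1 and Tyk2 then activate STAT proteins such as Stat2, which join Irf9 in a complex that binds the interferon-stimulated response element (ISRE) in promoters. The genes so induced include the sensors and transcription factors themselves, which makes the response self-amplifying, and effectors that block steps of viral replication. Interferon γ acts through another promoter element, the γ-activated site (GAS). In muscle the response is best known from inflammatory myopathies.

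The promoters of several members are printed because they show the ISRE of the textbook account. RefSeq promoter sequences (GRCm38.p6, 250 bases before to 50 bases after the start site) were found for 32 of the 42 genes, and the genes without one were Dhx58, Zbp1, Usp18, Oas2, Mx1, Mx2, Parp9, Parp14, Ifi27 and Rtp4. An ISRE core, spelled GAAANNGAAA and searched on both strands with overlaps allowed, was found for 16 of these 32 genes (50%), and for 1079 of all 27025 genes with a promoter in the table (3.99%). A GAS core, spelled TTCNNNGAA, was found for 8 of the 32 (25.0%) and for 9.55% of all genes. In the windows of 100 bases below, written 5′ to 3′ along the strand of the gene, capitals mark every ISRE core on either strand. Isg15 (chr4:156200836-156200935, minus strand), Ifit3 (chr19:34583345-34583444, plus strand) and Ifit1 (chr19:34640749-34640848, plus strand) are shown as members with among the highest levels in PSB-KD107 library 4. Rsad2 (chr12:26456518-26456617, minus strand) and Cxcl10 (chr5:92349040-92349139, minus strand) are shown because they were also higher than vehicle in the other treated libraries, and Stat2 (chr10:128270248-128270347, plus strand) because its fold was small in spite of an ISRE core.
Isg15: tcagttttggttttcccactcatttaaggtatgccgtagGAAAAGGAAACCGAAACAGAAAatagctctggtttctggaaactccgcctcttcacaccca
Ifit3: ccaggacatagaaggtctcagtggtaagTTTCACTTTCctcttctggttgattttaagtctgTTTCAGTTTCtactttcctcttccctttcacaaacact
Ifit1: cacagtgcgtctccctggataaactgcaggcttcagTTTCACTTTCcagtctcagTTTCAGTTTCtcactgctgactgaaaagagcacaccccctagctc
Rsad2: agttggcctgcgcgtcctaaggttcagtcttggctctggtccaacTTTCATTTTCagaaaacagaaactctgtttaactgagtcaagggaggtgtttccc
Cxcl10: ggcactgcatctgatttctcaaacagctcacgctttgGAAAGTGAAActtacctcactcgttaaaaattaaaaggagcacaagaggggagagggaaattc
Stat2: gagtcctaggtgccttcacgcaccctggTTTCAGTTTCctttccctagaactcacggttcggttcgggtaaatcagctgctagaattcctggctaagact

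The Isg15 window holds 3 overlapping cores in a row, the windows of Ifit3 and Ifit1 hold 2 separate cores each, and the windows of Rsad2, Cxcl10 and Stat2 hold 1 each. The window of Ifit3b is the same, base for base, as that of Ifit3. A match is a string of letters and not a measured binding site, and a promoter with no match says nothing about the factor.

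**Figure D1:**
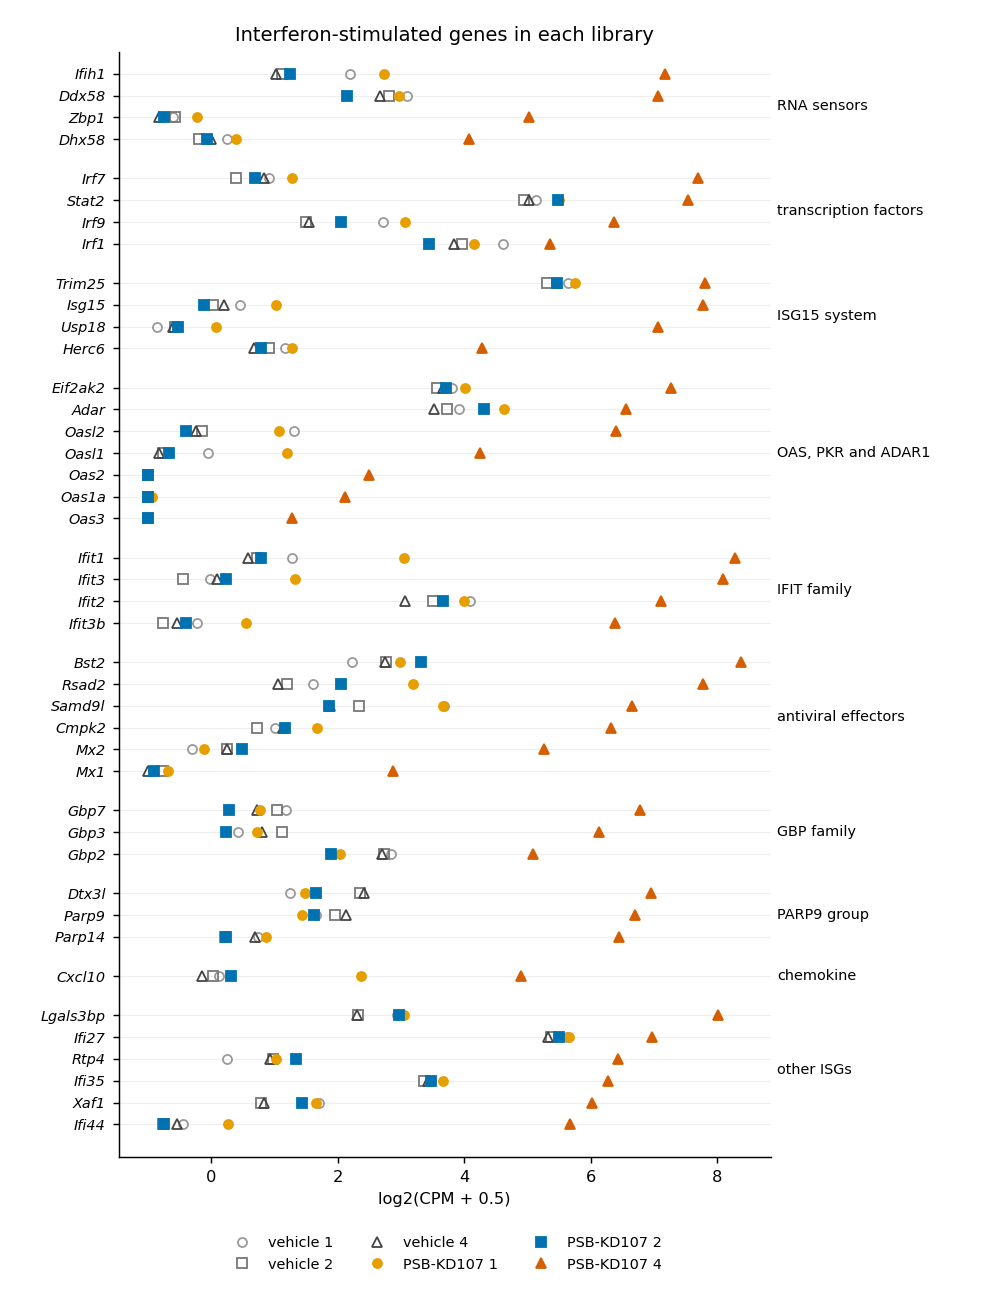
Level of each of the 42 genes in each library, as log2(CPM + 0.5), ordered within each role by the highest value. Grey open symbols are the 3 vehicle libraries and filled symbols the PSB-KD107 libraries, and the triangles of PSB-KD107 library 4 lie to the right of all other symbols in every row.

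All 42 genes had their highest level in PSB-KD107 library 4, as the plot of levels by library shows. In 41 of the 42 that level was at least 2 times the level of every other library, against 617 of the 14616 genes with at least 50 counts over the 6 libraries (4.22%). That order leaves no room for any of the 42 to stand out in this way in another library. Of all genes, 1.32%, 0.0958% and 0.0342% did so in vehicle libraries 1, 2 and 4, and 0.595% and 0.164% in PSB-KD107 libraries 1 and 2. The summed level of the 42 genes was 287, 226 and 225 CPM in vehicle libraries 1, 2 and 4, then 335 CPM in PSB-KD107 library 1, 254 CPM in library 2 and 4580 CPM in library 4. The genes thus took 0.445% of the counts of library 4 and 0.0222% to 0.0346% of the counts of the other libraries.

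Against the mean of vehicle, the fold in PSB-KD107 library 4 had a median of 55.6 over the 39 genes for which vehicle had enough counts, and ran from 2.29 for Irf1 to 1060 for Usp18. It was at least 10-fold for 32 of them and at least 100-fold for 10, and all 42 genes were at least 2-fold higher, as were 7.49% of all genes in that library. In PSB-KD107 library 1 the level of 8 of the 42 genes was at least 2-fold above vehicle, beside 3.85% of all genes in that library. These 8 were Ifih1, Irf9, Oasl1, Ifit1, Ifit3, Ifit3b, Rsad2 and Cxcl10. In library 2 the count was 0 of 42, beside 1.33% of all genes. All of these counts use log2((CPM + 0.5)/(mean vehicle CPM + 0.5)), a scale that understates the change of genes with low counts. On that scale the median of the 42 genes was 0.38 in library 1, 0.00 in library 2 and 4.85 in library 4, and the median of all genes lay between -0.02 and -0.01. For comparison, vehicle library 1 set against the other vehicle libraries had a median of 0.26 over the 42 genes, with 4 genes at least 2-fold higher (6.84% of all genes) and 1 at least 2-fold lower (2.47%).

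Below, values are listed in the order of libraries 1, 2 and 4 of each group, in CPM unless another unit is named.

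The sensors of foreign RNA were at low levels in 5 libraries and at much higher levels in library 4. Ifih1, which encodes MDA5, stood at 4.08, 1.66 and 1.52 CPM with vehicle and at 6.14, 1.86 and 143 CPM with PSB-KD107. For Ddx58, which encodes RIG-I, vehicle gave 7.99, 6.47 and 5.86 CPM and PSB-KD107 gave 7.31, 3.91 and 133 CPM. Library 2 was thus the lowest of the 6 libraries for Ddx58 and library 4 the highest by 16.6-fold. Zbp1, a sensor of Z-form nucleic acids linked to necroptosis, was hardly detected outside library 4, at 0.153, 0.172 and 0.062 CPM with vehicle against 0.358, 0.0962 and 31.8 CPM. Dhx58, which encodes LGP2, a regulator of the other sensors of its family, read 0.689, 0.372 and 0.496 CPM with vehicle and 0.815, 0.449 and 16.4 CPM with PSB-KD107. In the 5 libraries other than library 4, treated and vehicle values of the 4 sensors overlapped or came within 2-fold of each other, apart from the fold of 2.54 of Ifih1 and of 2.77 of Zbp1 in library 1, the latter on 14 vehicle counts in all.

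The transcription factors differed widely among themselves. Irf7, the factor that widens the production of interferon α, had 1.38, 0.802 and 1.27 CPM with vehicle and 1.93, 1.12 and 207 CPM with PSB-KD107, a 180-fold difference in library 4. Irf9, the DNA-binding part of the complex with Stat2, had 6.07, 2.32 and 2.42 CPM against 7.87, 3.62 and 82.0 CPM. Stat2 was already well expressed with vehicle at 34.7, 30.1 and 32.1 CPM and read 44.7, 44.0 and 184 CPM with PSB-KD107. All 3 treated libraries were thus above all vehicle libraries for Stat2, by 1.38-, 1.36- and 5.69-fold over the vehicle mean. Irf1, a factor that also answers interferon γ, was the exception among the 42 genes. It stood at 24, 15.1 and 13.7 CPM with vehicle and at 17.2, 10.3 and 40.4 CPM with PSB-KD107, so that library 4 was only 1.68-fold above the next library. The median log2 difference of the 4 factors in library 4 was 3.41, beside 4.91 for the 4 sensors.

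Genes of the ISG15 system code for a ubiquitin-like protein and for enzymes that attach or remove it. Isg15 itself was at 0.867, 0.516 and 0.651 CPM with vehicle and at 1.53, 0.417 and 217 CPM with PSB-KD107. Usp18, the protease that removes ISG15 and also damps signaling at the interferon receptor, had 13 counts in the vehicle libraries together, or 0.051, 0.172 and 0.155 CPM, and read 0.556, 0.192 and 133 CPM with PSB-KD107. Its 1060-fold difference in library 4 rests on those few vehicle counts. Trim25, a ubiquitin ligase that acts with RIG-I, was abundant throughout at 49.1, 39.2 and 43.4 CPM against 53.1, 43.6 and 224 CPM. Herc6, the ligase for ISG15 in mice, showed 1.73, 1.37 and 1.09 CPM against 1.93, 1.22 and 18.9 CPM, and 1269 bases of its exons are shared with a transcript annotated on the same strand. The 4 genes of this system had folds between 5.11 and 1060 in library 4.

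The OAS genes, whose products make a messenger that activates RNase L, were nearly silent outside library 4. Oas2 and Oas3 had 0 counts in all 5 other libraries, where 3 counts correspond to 0.0596 to 0.0962 CPM, and stood at 5.12 and 1.93 CPM in library 4, or at least 55-fold and 20.7-fold above vehicle by the floor of 3 counts per library. For Oas1a, library 4 had 3.82 CPM, at least 41.1-fold above the same floor, and the 3 vehicle libraries had 0 counts. Its counts are uncertain, as 97.5% of 1860 aligned transcript bases are the same in Oas1g. Oasl1, an OAS-like protein without the enzymatic activity, read 0.459, 0.0859 and 0.062 CPM with vehicle and 1.79, 0.128 and 18.4 CPM with PSB-KD107. Its relative Oasl2 was at 1.96, 0.401 and 0.341 CPM against 1.59, 0.257 and 84.0 CPM. For both, vehicle library 1 was the highest vehicle library and PSB-KD107 library 1 was above PSB-KD107 library 2. Eif2ak2, which encodes the kinase PKR that halts translation when it binds double-stranded RNA, had 13.4, 11.3 and 12.2 CPM with vehicle and 15.6, 12.6 and 153 CPM with PSB-KD107. Adar, the editor of adenosines in double-stranded RNA, was above vehicle in each treated library, at 24.2, 19.4 and 93.4 CPM against 14.5, 12.7 and 10.9 CPM. The opposite strand at Adar carries exons of Chrnb2 over 1365 bases, so the counts of the 2 genes could be split if strand was not used.

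The IFIT genes, whose proteins bind viral RNA with foreign ends, had the highest median of all roles in library 4, a log2 difference of 7.13. Ifit1 was at 1.91, 1.15 and 0.993 CPM with vehicle and at 7.79, 1.22 and 309 CPM with PSB-KD107. Ifit3 read 0.485, 0.229 and 0.558 CPM with vehicle and 1.99, 0.674 and 272 CPM with PSB-KD107, or 640-fold above the vehicle mean in library 4. Library 1 was 5.77-fold above vehicle for Ifit1 and 4.69-fold for Ifit3, whereas library 2 lay at 0.903-fold and 1.59-fold. Ifit3b had 0.357, 0.0859 and 0.186 CPM against 0.954, 0.257 and 82.4 CPM, and 97.8% of 1700 aligned transcript bases are the same in Ifit3, so reads of these genes could be split between them. Ifit2 started from a higher level, with 16.5, 10.8 and 7.82 CPM against 15.4, 12.2 and 137 CPM. The 4 genes lie in a single stretch of chromosome 19 (mm10), from 34550694 at the start of Ifit2 to 34650009 at the end of Ifit1.

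**Figure D2:**
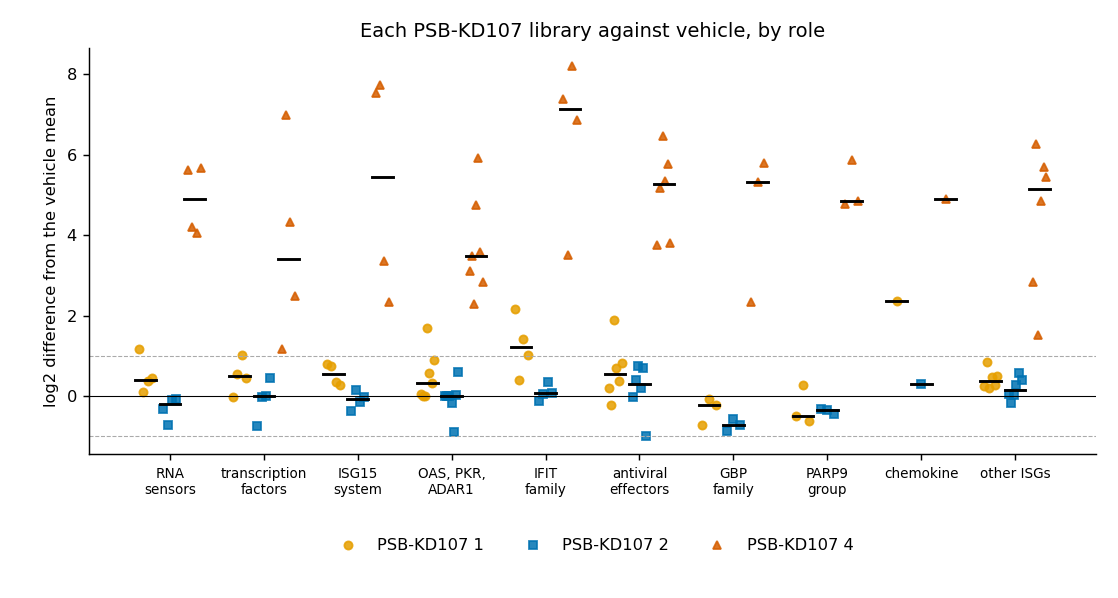
Log2 difference of each gene from the vehicle mean, log2((CPM + 0.5)/(mean vehicle CPM + 0.5)), in each PSB-KD107 library, by role. Points are genes, black bars are medians and dashed lines mark 2-fold. Library 4 is above 2-fold for all 42 genes, and the IFIT family and the chemokine Cxcl10 are the roles with medians above 2-fold in library 1.

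The antiviral effectors act at defined steps of infection. Bst2, or tetherin, which holds budding virus at the cell surface, was at 4.18, 6.24 and 6.23 CPM with vehicle and at 7.39, 9.40 and 331 CPM with PSB-KD107. Rsad2, or viperin, whose product ends the copying of viral RNA, had 2.53, 1.78 and 1.58 CPM against 8.6, 3.62 and 217 CPM. Cmpk2, the kinase encoded next to Rsad2 on chromosome 12 that feeds it nucleotides, had 1.51, 1.15 and 1.68 CPM against 2.68, 1.73 and 79.3 CPM. These 3 genes were higher in CPM in every treated library than in any vehicle library. For Cmpk2 this rested on scaling, with 54 counts in both PSB-KD107 library 2 and vehicle library 4. Samd9l, a growth and antiviral restriction factor, had 12.3, 4.55 and 3.16 CPM against 12.2, 3.11 and 100 CPM, and here both libraries numbered 1 were alike. Mx2 stood at 0.306, 0.687 and 0.682 CPM with vehicle and 0.417, 0.898 and 37.6 CPM with PSB-KD107, and Mx1, another dynamin-like GTPase, reached 6.82 CPM in library 4 and had 4 counts in all vehicle libraries together.

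The 3 guanylate-binding proteins among the 42, of a family that attacks the vacuoles of intracellular pathogens, were below the vehicle mean in libraries 1 and 2 and above it in library 4. Gbp2 had 6.63, 6.16 and 5.96 CPM with vehicle and 3.6, 3.21 and 33.4 CPM with PSB-KD107, so that libraries 1 and 2 lay below all vehicle libraries at 0.576-fold and 0.513-fold and library 4 lay 5.35-fold above their mean. Gbp7 read 1.76, 1.55 and 1.15 CPM against 1.21, 0.706 and 109 CPM. Gbp3 read 0.842, 1.66 and 1.24 CPM against 1.15, 0.674 and 69.4 CPM. In library 2 all 3 genes were below all vehicle libraries, with a median log2 difference of -0.72. Other members of the family, outside the 42 and named after their values were seen, varied in library 1, where Gbp6 was at 2.62-fold, Gbp9 at 1.16-fold and Gbp8 at 1.10-fold of the vehicle mean, Gbp4 at 0.982-fold and Gbp5 at 0.797-fold. In library 2 these 5 genes were at 0.228- to 0.294-fold and in library 4 at 3.31- to 28.6-fold. Counts of Gbp7 are uncertain, since 637 of its exon bases are shared with a pseudogene on the same strand.

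Parp9 and Dtx3l, partners in a complex that adds ADP-ribose and ubiquitin, were likewise below the vehicle mean in libraries 1 and 2. Parp9 was at 2.63, 3.38 and 3.88 CPM with vehicle and at 2.21, 2.57 and 103 CPM with PSB-KD107. Dtx3l had 1.86, 4.61 and 4.84 CPM against 2.29, 2.63 and 123 CPM. The genes are read in opposite directions from a shared stretch of chromosome 16 with 458 exon bases in common, so their counts are not fully separate. Parp14, a related enzyme from the same region, had 1.17, 0.659 and 1.12 CPM against 1.31, 0.674 and 86.3 CPM.

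Cxcl10, the chemokine that draws T cells through Cxcr3, had the largest difference of the 42 genes in library 1. It was at 0.587, 0.516 and 0.403 CPM with vehicle and at 4.63, 0.738 and 29.2 CPM with PSB-KD107, or 9.23-, 1.47- and 58.2-fold over the vehicle mean. Of the remaining genes, Lgals3bp, a secreted galectin-binding glycoprotein, had 7.14, 4.5 and 4.44 CPM against 7.75, 7.28 and 257 CPM. Rtp4, a chaperone of receptors, had 0.689, 1.46 and 1.40 CPM against 1.53, 2.02 and 86.0 CPM. In both, each treated library was above each vehicle library in CPM, and libraries 1 and 2 were less than 2-fold above the vehicle mean. Ifi44 reached 50.6 CPM in library 4 from 0.0859 to 0.230 CPM with vehicle, and Xaf1, an antagonist of the apoptosis inhibitor XIAP, reached 64.4 CPM from 1.23 to 2.76 CPM. Ifi35 was at 9.82 to 10.6 CPM with vehicle and at 12.2, 10.6 and 76.9 CPM with PSB-KD107, so that its groups were separated by less than the rounding of these values. Ifi27, which led the genes per length with vehicle, had a fold of 2.89 in library 4, with 48.9, 41.0 and 39.7 CPM against 49.6, 44.6 and 125 CPM.

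Levels of different genes can be compared per length of transcript, in FPKM. With vehicle, Ifi27 led the 42 genes at 27.1 to 33.3 FPKM, and the median gene had 0.343 to 0.369 FPKM. In library 4 Bst2 led with 366 FPKM, followed by Isg15 with 287, Ifit3 with 156 and Ifit1 with 116 FPKM, and the median was 19.0 FPKM. At least 1 FPKM was reached by 11 to 15 of the 42 genes in the vehicle libraries, by 19 and 11 in PSB-KD107 libraries 1 and 2, and by 41 in library 4, where Oas3 was the exception at 0.272 FPKM. The order of the genes in library 4 was thus not the order with vehicle.

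Across roles, the medians of the log2 difference in library 4 ran from 3.41 for the transcription factors and 3.49 for the OAS, PKR and ADAR1 group, through 4.91 for the sensors, 5.26 for the antiviral effectors and 5.44 for the ISG15 system, to 7.13 for the IFIT family. Within a role the genes spread widely, from 1.17 to 6.98 for the transcription factors and from 2.34 to 7.74 for the ISG15 system, so these medians of 3 to 7 genes are not a ranking. Genes with an ISRE core in the promoter had folds of 5.35 to 640 in library 4 (median 59.3, 14 genes with a fold), and genes whose promoter had none had folds of 2.29 to 303 (median 27.7, 16 genes), 2 ranges that overlap.

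PSB-KD107 libraries 1 and 2 did not share the high levels of library 4. In library 1, 28 of the 42 genes were above all vehicle libraries (30.0% of all genes) and 2 were below all of them (29.5%). In library 2 the counts were 12 above (27.2%) and 9 below (23%). For 11 genes every treated library was above every vehicle library, namely Stat2, Usp18, Adar, Ifit3, Rsad2, Cmpk2, Bst2, Cxcl10, Ifi35, Rtp4 and Lgals3bp. Over all genes that pattern was met by 9.12%. The shares are not alike, because the 42 genes were chosen with library 4 known to be high in them. Nothing is therefore read from the difference. For Usp18, Cmpk2, Cxcl10, Ifi35 and Lgals3bp the pattern rested on scaling alone. Raw counts of Usp18, Cmpk2 and Cxcl10 in PSB-KD107 library 2 (6, 54 and 23) equaled those of the vehicle library highest in CPM. Raw counts of Ifi35 and Lgals3bp in PSB-KD107 library 2 (332 and 227) were below those in vehicle library 1 (415 and 280). Libraries numbered 1 were alike in both groups. Among the vehicle libraries, number 1 was the highest for 28 of the 42 genes (44.7% of all genes), and PSB-KD107 library 1 was above library 2 for 35 of them (49.5% of all genes). Another mark of the libraries numbered 1 was Xist, the RNA that silences an X chromosome, which stood at 6.45 CPM (vehicle) and 7.41 CPM (PSB-KD107) in these and at 276 to 437 CPM in the other 4 libraries. Whether the higher values of library 1 go with the compound or with the cells numbered 1 cannot be told from these values. A fit with the library number as a block on libraries 1 and 2 is given with the processing below. Set against the vehicle library with its own number, the median log2 difference of the 42 genes was 0.22 in library 1, 0.11 in library 2 and 5.02 in library 4.

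**Figure D3:**
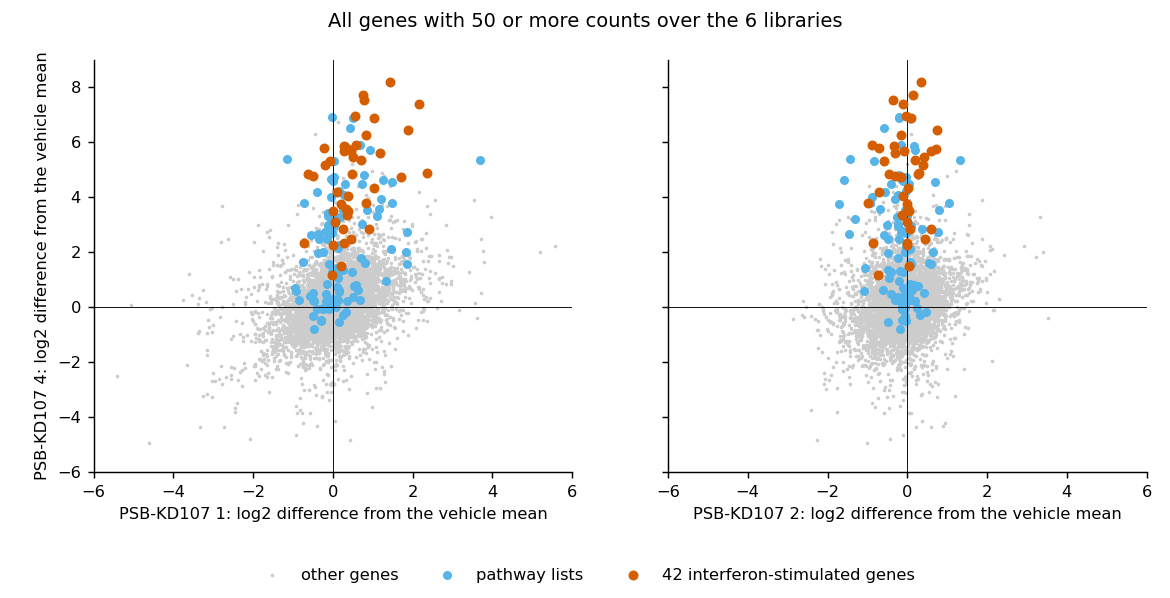
Log2 difference from the vehicle mean of all 14616 genes with at least 50 counts, PSB-KD107 library 4 on the vertical axis against library 1 (left) and library 2 (right). Both axes share the same vehicle mean, so a slope between them is not read. The 42 genes (orange) lie at 1.17 to 8.20 on the vertical axis, at -0.72 to 2.36 for library 1 and at -0.99 to 0.74 for library 2.

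The fit over both groups was set against the same fit without library 4. Of the 42 genes, 35 had enough counts in enough libraries to be tested, and the 7 that did not were Zbp1, Usp18, Oas1a, Oas2, Oas3, Mx1 and Ifi44, high in library 4 alone. With edgeR's quasi-likelihood test over 3 libraries per group, 0 of the 35 passed an adjusted p of 0.05, as did 0 of all 14165 genes tested (0.0%). At an unadjusted p under 0.05 there were 20 of the 35, all higher, beside 6.47% of all genes that were higher and 2.93% that were lower, and the contrast is the one that led to the choice of the genes. The fitted log2 fold changes had a median of 4.08 over the 35 genes and of 0.00 over all genes. They ran from 0.36 ± 0.52 (SE, 3 against 3 libraries) for Irf1 to 7.74 ± 2.58 for Ifit3. Without PSB-KD107 library 4 the median was 0.29 (all genes -0.01), 28 of the 35 genes were above 0 and 7 below it. No gene passed the adjusted threshold in that fit either, which had no term for the library number. A fit with that number as a block did call genes and is given with the processing below. Without PSB-KD107 library 4 and without a block, 5 of the 35 genes were higher at an unadjusted p under 0.05 (6.92% of all genes) and 1 lower (3.65%). The lowest value was then -0.88 ± 0.19 for Gbp2 and the highest 2.42 ± 0.78 for Cxcl10. Rsad2 had 1.64 ± 0.45, Adar 0.78 ± 0.18 and Stat2 0.46 ± 0.10, while Isg15 had 0.53 ± 0.61 and Irf7 0.41 ± 0.40.

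**Figure D4:**
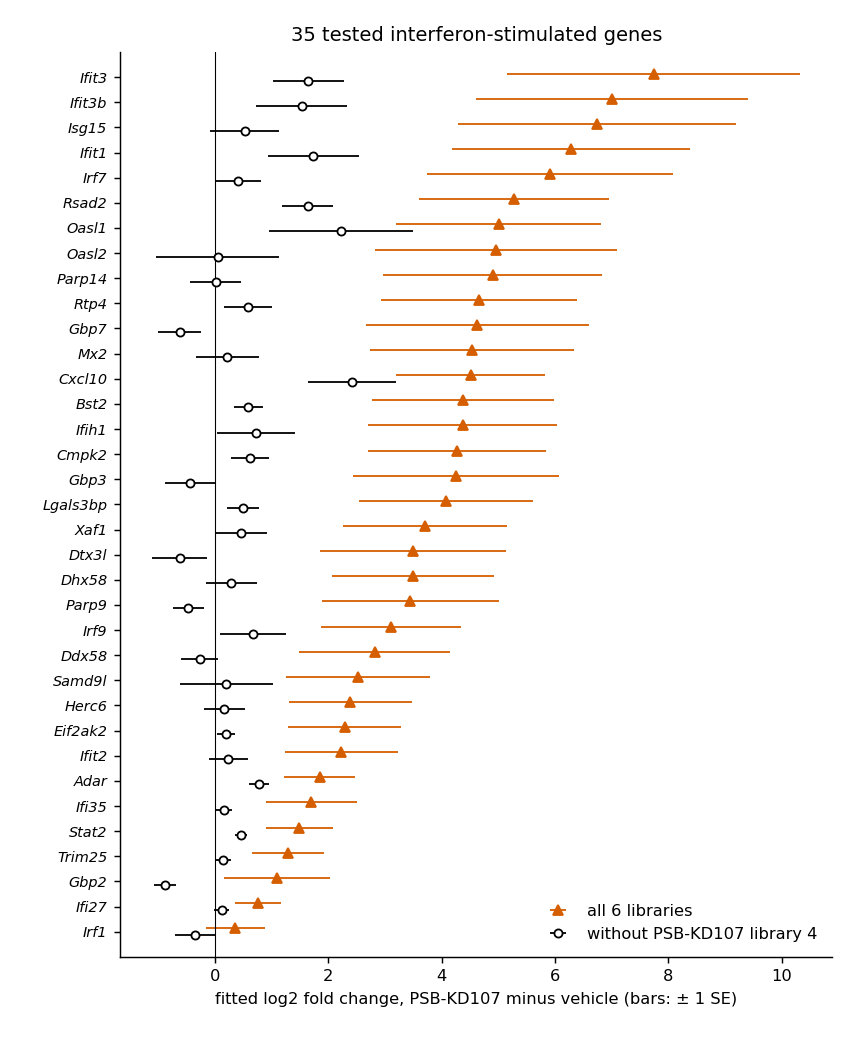
Fitted log2 fold change of PSB-KD107 minus vehicle, with 1 SE on either side, for the 35 tested genes. Orange triangles are from all 6 libraries (median 4.08) and open circles from the 5 libraries without PSB-KD107 library 4 (median 0.29), where 7 genes fall below 0.

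DESeq2 called 410 genes (2.96% of the 13829 with an adjusted p), of which 1 was among the 42, Cxcl10. For 31 of the 42 it gave no p, because its rule on outlying counts sets aside a gene with a single extreme library. That rule left out 110 of all 24186 genes with a count (0.455%). With the rule turned off, 13 of the 42 were called, Zbp1, Irf7, Isg15, Usp18, Oas2, Adar, Ifit1, Ifit3, Ifit3b, Mx1, Rsad2, Cxcl10 and Ifi44, all higher, beside 2.33% of all genes that were called higher. These calls come from the contrast that led to the choice of the genes, in which library 4 held the highest level of each, so nothing is read from their number.

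The genes of the pathway around the 42 were taken from 6 lists with 137 genes in all, of which 85 could be tested. With edgeR 0 of the 85 passed an adjusted p of 0.05, 16 had an unadjusted p under 0.05, all higher (6.47% of all genes), and DESeq2 called 5 (2.96% of all genes with an adjusted p). Among 21 interferon genes, Ifnb1, the gene of interferon β, had 13 counts in library 4 (0.358 CPM) and 0 in the other 5 libraries. The other ligands with any count were Ifna4 at 0.0275 CPM in library 4, Ifne at 0.0321 CPM in PSB-KD107 library 2, and Ifnz and Ifng at 0.0199 CPM each in PSB-KD107 library 1, all below the floor of 3 counts. Only Ifnb1 was thus above the floor, and in library 4.

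Receptors and kinases were less than 2-fold above vehicle in all treated libraries. Of 8 tested genes of this list, 0 had an unadjusted p under 0.05 in edgeR (smallest adjusted p 0.599), and the median log2 difference in library 4 was -0.07. Ifnar2, a chain of the receptor for interferon α and β, was at 20.5, 22.4 and 24.4 CPM with vehicle and 18.3, 20.3 and 16.1 CPM with PSB-KD107. Jak1 had 124, 118 and 117 CPM against 131, 122 and 145 CPM. Ifngr2, of the receptor for interferon γ, had 41.8, 39.4 and 33.7 CPM against 40.8, 41.7 and 64.8 CPM. Tyk2, the kinase bound to the receptor for interferon α and β, had 29.7, 33.3 and 31.7 CPM against 39.7, 44.0 and 28.1 CPM, and its log2 fold change was 0.24 ± 0.18 with library 4 and 0.41 ± 0.10 without it (adjusted p = 0.271, edgeR).

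Of the 11 tested genes upstream of the interferons, 2 were at least 2-fold above the vehicle mean in library 4 on the log2(CPM + 0.5) scale (7.49% of all genes), 1 in library 1 (3.85%) and 0 in library 2 (1.33%). The 2 in library 4 were Tlr3 and Mb21d1, the gene of the DNA sensor cGAS, and the 1 in library 1 was Tmem173, the gene of its adaptor STING. Mb21d1 and Tmem173 were named after their values were seen. Mb21d1 had 1.35, 0.401 and 0.155 CPM with vehicle and 1.09, 0.353 and 2.26 CPM with PSB-KD107. Tmem173 had 11.2, 4.87 and 4.4 CPM against 17.9, 5.84 and 13.8 CPM. In both, vehicle library 1 was the highest of the vehicle libraries, and the groups overlapped. Ticam1, the adaptor of Tlr3, had 10.8, 10.2 and 10.1 CPM with vehicle and 15.2, 12.5 and 18.3 CPM with PSB-KD107. Tlr4, a receptor of bacterial lipopolysaccharide, had 33.3, 31.9 and 31.8 CPM against 41.6, 36.8 and 38.2 CPM. For Ticam1 and Tlr4 all treated libraries were above all vehicle libraries, a pattern met by 9.12% of all genes. Their log2 fold changes of 0.56 ± 0.18 and 0.27 ± 0.10 did not pass the adjusted threshold in edgeR (smallest adjusted p of the list 0.415). In that test 2 of the 11 genes had an unadjusted p under 0.05, beside 6.47% of all genes higher and 2.93% lower. Tlr3, a sensor of double-stranded RNA in endosomes, had 2.65, 2.32 and 1.61 CPM against 2.70, 2.98 and 19.1 CPM. Myd88, the adaptor of most other Toll-like receptors, had 10.3, 9.25 and 6.95 CPM against 13.9, 9.62 and 14 CPM. Of the 12 tested negative regulators none was at least 2-fold higher in any treated library, and 0 had an unadjusted p under 0.05 in edgeR (smallest adjusted p 0.587). Nlrx1, a mitochondrial inhibitor of Mavs signaling, had 9.18, 11.3 and 11.5 CPM against 7.61, 9.33 and 5.92 CPM. Socs3, which blocks cytokine receptors, had 10.9, 8.76 and 10.6 CPM against 14.6, 8.6 and 13.3 CPM. The E3 ligase Pias1, with 35, 45.1 and 49.9 CPM against 30.7, 41.4 and 34.9 CPM, and Rnaseh2c, with 20.8, 13.6 and 15.1 CPM against 18.4, 11.7 and 11.3 CPM, also overlapped between the groups.

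**Figure D5:**
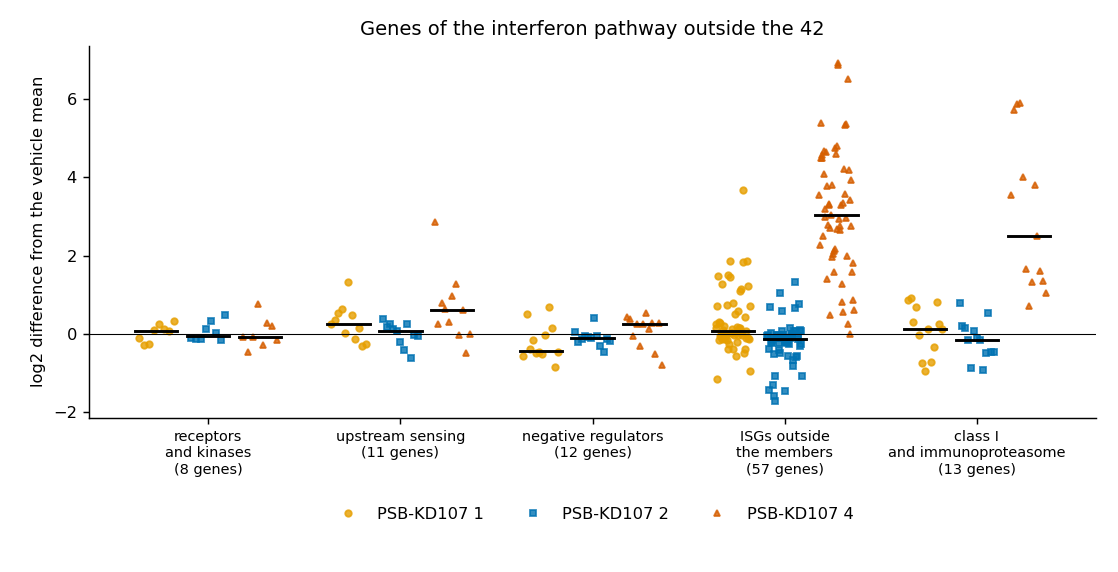
Log2 difference from the vehicle mean in each PSB-KD107 library for the genes of 5 pathway lists with at least 50 counts over the 6 libraries; black bars are medians. In library 4 the medians are 3.03 for the interferon-stimulated genes outside the 42 and 2.49 for class I and immunoproteasome genes, and -0.07, 0.62 and 0.24 for the other lists.

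A second list of 67 interferon-stimulated genes outside the 42 was high in the same library. Of the 57 with at least 50 counts, 46 were at least 2 times every other library in library 4 (4.22% of all genes). At least 2-fold above the vehicle mean were 50 in library 4 (7.49% of all genes), 2 in library 2 (1.33%) and 11 in library 1 (3.85%). Their median log2 difference was 3.03 in library 4, -0.13 in library 2 and 0.08 in library 1. Not all known members were high there. Epsti1 had 0 counts in library 4, Casp1 also had 0, and Cxcl11, Aim2 and Ifi44l stayed at or under 0.0825 CPM there, genes named after their values were seen. Of 42 tested genes of the list, 10 had an unadjusted p under 0.05, all higher (6.47% of all genes), and none passed after adjustment (smallest adjusted p 0.287, edgeR).

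Some of these genes were higher than vehicle in all 3 treated libraries, and others were lower in libraries 1 and 2. Without library 4, 4 of the 42 tested genes of this list were higher at an unadjusted p under 0.05 in edgeR (6.92% of all genes) and 3 lower (3.65%). The lower ones, Iigp1, Mov10 and Ly6e, were at 0.259-, 0.498- and 0.759-fold of the vehicle mean in library 1. In library 2 they were at 0.154-, 0.443- and 0.701-fold. Nlrc5, the activator of class I genes, had 0.306, 0.258 and 0.279 CPM with vehicle and 1.69, 1.12 and 10.4 CPM with PSB-KD107, and its log2 fold change was 3.96 ± 0.97 with library 4 and 2.31 ± 0.34 without it. Zc3hav1, the zinc-finger antiviral protein that targets CpG-rich RNA, had 19.2, 13.1 and 11.9 CPM against 55, 25.5 and 102 CPM. Irgm1, an immunity-related GTPase, had 8.78, 6.50 and 6.55 CPM against 21.2, 12.1 and 184 CPM. For Nlrc5, Zc3hav1 and Irgm1 all treated libraries were above all vehicle libraries, a pattern met by 9.12% of all genes. These genes were picked by their small p in this contrast, so nothing is read from that pattern. Ifi207, a member of the family of DNA sensors listed in the table under an older symbol, had 0.306, 0.0573 and 0 CPM against 7.43, 1.06 and 25.1 CPM. None of these passed the adjusted threshold in edgeR, whereas DESeq2 called Nlrc5 (adjusted p = 0.00055), Zc3hav1 (adjusted p = 0.00278) and Ifi207 (adjusted p = 0.006).

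Class I presentation genes, which interferons also induce, showed a like pattern, with 9 of 13 at least 2 times every other library in library 4 (4.22% of all genes) and 4 of 12 tested genes higher at an unadjusted p under 0.05 in edgeR (6.47%). B2m, the light chain of class I molecules, had 81.7, 72.5 and 74.6 CPM with vehicle and 139, 132 and 892 CPM with PSB-KD107, with a log2 fold change of 0.83 ± 0.09 without library 4. Psmb10, a subunit of the immunoproteasome, had 14.6, 13.3 and 11.6 CPM against 23.3, 19.4 and 40.9 CPM. DESeq2 called B2m (adjusted p = 0.0275) and Psmb10 (adjusted p = 0.0439), and edgeR called no gene of this list (smallest adjusted p 0.359). The heavy chains H2-K1 and H2-D1 differed mainly in library 4, with 11, 8.65 and 9.80 CPM against 19.0, 11.3 and 547 CPM for H2-K1 and 7.99, 6.64 and 7.48 CPM against 9.24, 8.31 and 458 CPM for H2-D1. The immunoproteasome subunit Psmb8, named after its values were seen, read 1.12, 0.630 and 0.713 CPM with vehicle, 0.298 and 0.192 CPM in libraries 1 and 2, and 17.9 CPM in library 4.

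Markers of other cells were followed because leukocytes also express these genes. Of 13 markers of macrophages and leukocytes, 12 were under 1 CPM in library 4 and 4 had 0 counts there. Ptprc, Adgre1 and Tyrobp, which define these cells, had at most 1 count in any library, so their absence does not set library 4 apart. Laptm5 was highest in library 4, at 1.16 CPM against 0.587, 0.258 and 0.310 CPM with vehicle. Itgam was lowest there, at 0.385 CPM against 4.24, 2.72 and 1.92 CPM with vehicle. The summed level of the list was 2.37 CPM in library 4, 3.10 to 6.20 CPM with vehicle and 8.23 and 3.62 CPM in PSB-KD107 libraries 1 and 2. The 8 endothelial markers summed to 1.27 CPM in library 4 and to 0.496 to 1.66 CPM with vehicle. Of 8 markers of fibro-adipogenic cells 6 were under 1 CPM in library 4, and their sum, nearly all from Gsn, was 173 CPM there, 126 and 172 CPM in PSB-KD107 libraries 1 and 2 and 132 to 145 CPM with vehicle. The share of cells that responded and the RNA level per responding cell cannot be told apart in such bulk libraries. Nor can it be told apart, with a single library, whether the state of library 4 belonged to the treatment or to that culture. The vehicle library with the same number held the 42 genes at 225 CPM in sum.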

How the data were processed

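RNA from mdx myoblasts treated with vehicle or PSB-KD107 (3 libraries per group) was sequenced by the authors in paired-end mode and aligned with STAR to the mouse genome (mm10). The authors deposited raw counts per gene, without normalization. The counting program, its annotation and its use of strand were not given in the sources used here. Groups came from the sample records and column names. Because the records number replicates 1 to 3, those numbered 4 in the table were placed by group alone.

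The members, their roles and the pathway and marker lists were chosen with earlier results of these data known. The genes named outside the members were, in each pathway list, those with the smallest p (4 per list) and every interferon gene with a count. The lists leave out 1 gene that is not reported here.

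The software was edgeR 4.0.16 and DESeq2 1.42.0 under R 4.3.3, together with pandas 2.3.3 under Python 3.11.15. After filterByExpr (14165 genes kept) and TMM scaling (factors of 0.974 to 1.03), the groups were compared with edgeR's quasi-likelihood test. P-values were adjusted over all genes tested by the Benjamini-Hochberg method. The SE of a log2 fold change came from its F statistic. CPM values are counts over the scaled totals, and floors of 3 counts cover counting error only. Each treated library was set against the mean of vehicle on log2(CPM + 0.5), over 14616 genes with at least 50 counts. FPKM used exon lengths of GENCODE M21. Gene positions and overlaps came from the same annotation, which held 46574 of the 47069 genes, and promoters from RefSeq. The fits were tested on simulated data. Alternatives were RLE factors, no filter, a mean FPKM of at least 1, offsets of 0.1 and 1 CPM, other vehicle references, DESeq2, a block on the library number and each library left out in turn. A block over all 6 libraries, the 4 libraries numbered 1 and 2 with no block, a robust fit and DESeq2 without its rule on outlying counts were added after seeing the data.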

Additional observations from a re-analysis of the deposited data

How the results depend on the processing

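The test over 3 libraries per group could not single out a response held by 1 library, and the library-by-library values have no replicate. Counts set the limit for Oas1a, Oas2, Oas3, Mx1, Usp18, Zbp1 and Ifi44, which had few or no vehicle counts. RLE factors, an FPKM filter (a mean of 1 or more in either group) and a robust fit left 0 genes called. With these and with no filter, the median log2 fold change lay between 4.07 and 4.36. Each median was taken over the members tested in that fit. Without a filter on low counts 8 genes were called, none among the 42. DESeq2 called 410 genes (2.96% of those with an adjusted p), with 1 of the 42 and 5 pathway genes. Without its rule on outlying counts it called 434 of 14384 genes, with 13 of the 42 and 8 pathway genes. With each library left out in turn 0 genes were called each time, and the median over the tested members ranged from 0.29, without PSB-KD107 library 4, to 4.82, without PSB-KD107 library 2; the other 4 omissions gave 4.14 to 4.61. Without PSB-KD107 library 4, 7 of the 35 tested members changed sign. With the 4 libraries numbered 1 and 2 alone and no block, the median was 0.28 and 0 genes were called. The median difference of library 4 from the vehicle mean was 5.63 with an offset of 0.1 CPM and 4.58 with an offset of 1 CPM.

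With the replicate number as a block on those 4 libraries, 2456 genes were called, with 9 of the 42 (Irf1 and Gbp2 lower, Stat2, Oasl1, Adar, Ifit3, Rsad2, Bst2 and Cxcl10 higher) and 19 pathway genes, and the median of the members was 0.32. With so many genes called, nothing is read from the number of members among them. The block over all 6 libraries called 0 genes, with a median of 1.78. The numbers were not taken to pair the libraries. The deviations of log2 CPM from the group means, over 14165 genes, correlated at 0.625 for number 1, 0.569 for number 2 and -0.132 for number 4, and PSB-KD107 library 2 correlated best with vehicle library 4 (0.663).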

Other observations

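Genes outside every list used here were also high in PSB-KD107 library 4 alone, and those named were chosen after their values were seen. Of the 617 genes at least 2 times every other library in that library, 520 belonged neither to the 42 genes nor to the pathway lists. The lists do not hold every gene that interferon induces, and how many of the 520 are such genes was not tested. The 20 genes furthest above every other library held 12 of the 42 and 6 pathway genes, and the 100 furthest held 33 and 31. Among the genes outside the lists, Rnf213, a large ubiquitin ligase, had 8.47, 10.5 and 11.3 CPM in vehicle libraries 1, 2 and 4 and 25.2, 20.8 and 292 CPM in the PSB-KD107 libraries. Myo18b, a myosin of striated muscle, had 0.969, 0.63 and 0.558 CPM with vehicle and 0.835, 0.77 and 130 CPM with PSB-KD107. The transcription factor Tbx18 had 0.255, 0.831 and 0.434 CPM against 0.238, 0.577 and 79.9 CPM. Hoxd8, a homeobox factor that sets position along the body axis, had 0.0765, 0.115 and 0.031 CPM against 0.179, 0.192 and 14.6 CPM. Ordered by how far library 4 lay above the next library, Myo18b was at rank 5 of all genes, Tbx18 at rank 9 and Hoxd8 at rank 35.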
